A study of Mus musculus with 8 samples.

Results

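The genes described here are the effectors and costimulators by which classically activated macrophages are recognised: the inducible nitric oxide synthase Nos2, the inducible cyclooxygenase Ptgs2, the tryptophan-degrading enzyme Ido1, the costimulatory proteins Cd80, Cd86 and Cd40, the transcription factor Irf5, and the surface proteins Fpr2, Cd38 and Gpr18. Each was to be represented by the probe set that names it in the platform annotation, and by the one with the highest mean over all 8 arrays where there were several. This gave 8 of the 10 listed genes, out of 21335 genes named on the array. Fpr2, a formyl peptide receptor, and Cd38, an enzyme that consumes NAD, were not analysed here.

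Classical activation is the state that macrophages enter when interferon gamma and microbial products, such as ligands of Toll-like receptors, act on them together. Toll-like receptors signal through NF-kB and IRF proteins. The cell then makes nitric oxide and prostaglandins, breaks down tryptophan and displays B7 proteins and Cd40 to T cells. In the spleen these proteins are also carried by dendritic cells and B cells.

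Hemophagocytes are macrophages seen with engulfed blood cells inside them. All mice were wild type C57Bl/6j males aged 8 weeks. Hemophagocytes came from mice injected intraperitoneally every other day, for 4 doses in all, with 37.5 ug of CpG1826, a ligand of Toll-like receptor 9, and 200 ug of 1B1.3A, a blocking antibody to the receptor of IL-10. Resting splenic macrophages came from mice injected on the same schedule with 200 uL of PBS. Each group had 4 Affymetrix mouse Gene ST 1.0 arrays, numbered 2, 3, 5 and 6 for hemophagocytes and 3, 4, 5 and 6 for resting macrophages. Each array carries a pool of laser-captured cells, taken at 20 per mouse, and which mice stand behind an array is not given. P-values therefore measure the spread between these arrays, which may be technical. Treated mice supplied hemophagocytes alone, so engulfment and treatment cannot be told apart.

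Of the 10 genes, 6 have a promoter in the RefSeq table (build GRCm38.p6), and the 250 bases before the transcription start were searched on both strands for 5 motifs that the factors of macrophage activation bind. These were the NF-kB site GGGANNTTC, the interferon element ISRE as GAAANNGAA, the AP-1 site TGANTCA, the cyclic AMP element half-site TGACGT and the C/EBP palindrome TTGCGCAA. The promoters of the 3 measured genes with a match are shown, with the match in capitals. They are on the plus strand at chr1:150099781-150100030 for Ptgs2 and chr16:38458683-38458932 for Cd80, and on the minus strand at chr14:121915889-121916138 for Gpr18:
Ptgs2: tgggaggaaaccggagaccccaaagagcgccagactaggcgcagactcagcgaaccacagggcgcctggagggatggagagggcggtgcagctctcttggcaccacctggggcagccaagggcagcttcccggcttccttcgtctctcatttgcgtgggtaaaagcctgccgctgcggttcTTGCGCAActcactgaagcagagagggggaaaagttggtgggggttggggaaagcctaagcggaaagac
Cd80: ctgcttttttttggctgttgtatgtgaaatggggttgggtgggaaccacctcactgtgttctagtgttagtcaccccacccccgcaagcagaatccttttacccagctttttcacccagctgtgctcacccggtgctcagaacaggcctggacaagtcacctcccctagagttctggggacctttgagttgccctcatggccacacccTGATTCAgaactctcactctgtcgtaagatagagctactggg
Gpr18: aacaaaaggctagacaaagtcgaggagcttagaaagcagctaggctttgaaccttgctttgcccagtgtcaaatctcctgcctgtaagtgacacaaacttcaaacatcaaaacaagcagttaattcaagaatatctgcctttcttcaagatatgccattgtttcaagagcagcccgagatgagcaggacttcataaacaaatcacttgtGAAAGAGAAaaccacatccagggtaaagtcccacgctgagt

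The C/EBP palindrome lies 69 bases before the Ptgs2 start, and 0.164% of the 32851 promoters of the table hold it in this window. The AP-1 match begins 42 bases before the Cd80 start (motif in 6.75% of promoters), and the ISRE match 41 bases before that of Gpr18 (7.13%). The windows of Irf5, Fpr2 and Cd38 hold none of the 5. The NF-kB letters (3.23%) and the half-site (6.47%) are in none of these windows. No match overlaps another. A match is a string of letters, and none was tested for binding.

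None of the 8 measured genes differed between hemophagocytes and resting macrophages past the threshold (limma, adjusted p under 0.05 over all probe sets; smallest adjusted p = 0.745). Over the whole array 4 of 20220 probe sets passed, which is 0.0198%, all 4 higher in hemophagocytes and 0 lower. They name Gng5, S100a6, Ftl1 together with 2 microRNAs, and Rpl35a together with Ino80. At an unadjusted p under 0.05 there was 1 of the 8 genes, Cd80, with lower values in hemophagocytes, where 5.08% of all probe sets were lower and 1.56% higher at that level. Changes ran from -0.21 for Cd80 to 0.16 for Nos2 on the log2 scale, with 4 genes above 0 and 4 below. Their median was 0.0071, beside a median of -0.037 and 36.2% above 0 over all probe sets. In pools of captured cells, fewer cells of a type and less transcript per cell cannot be told apart.

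**Figure D1:**
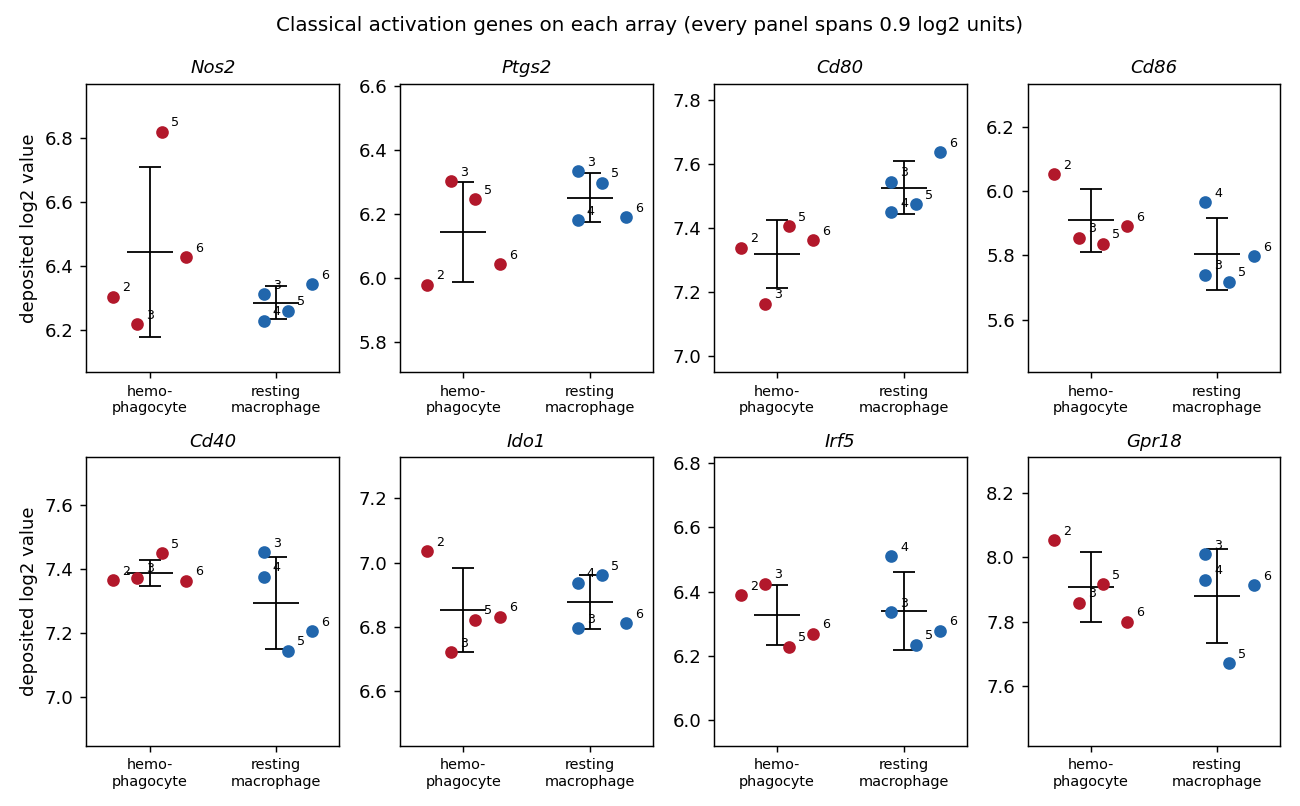
Deposited log2 value of each gene on each array, with the array's number beside the point, the mean as a long bar and 1 SD as whiskers; every panel has its own axis of equal length. Cd80 is the one gene whose groups do not overlap, and Nos2 is spread most widely among hemophagocytes, with array 5 at 6.82.

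The effector enzymes come first. Nos2, which makes nitric oxide from arginine, had log2 values of 6.31, 6.22, 6.82 and 6.43 on hemophagocytes 2, 3, 5 and 6. Resting macrophages 3, 4, 5 and 6 had 6.31, 6.23, 6.26 and 6.34. Hemophagocytes 5 and 6 lay above every resting array, hemophagocyte 3 lay below them all, and the groups overlapped. The means were 6.44 ± 0.27 and 6.29 ± 0.051 (log2, SD, n = 4 each). The change was 0.16 (SE 0.12, limma adjusted p = 0.779; exact permutation p = 0.371, two-sided). As a fold this is 1.11, with a 95% interval of 0.930 to 1.34. The SD of Nos2 among hemophagocytes was larger than that of 91.2% of all probe sets, and among resting macrophages larger than that of 10.2%. Without hemophagocyte 5 the change was 0.031.

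Ptgs2, which makes the prostaglandin precursor, had log2 values of 5.98, 6.30, 6.25 and 6.04 on hemophagocytes 2, 3, 5 and 6 and of 6.33, 6.18, 6.30 and 6.19 on resting macrophages 3, 4, 5 and 6. Hemophagocytes 2 and 6 were below every resting array, while 3 and 5 were among them. The change was -0.11 (SE 0.088, limma adjusted p = 0.791; exact permutation p = 0.314, two-sided), a fold of 0.928 with an interval of 0.811 to 1.06.

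Ido1, the interferon-induced enzyme that opens the kynurenine pathway, had values of 7.04, 6.72, 6.82 and 6.83 on the hemophagocyte arrays, in the same order. The resting arrays had 6.80, 6.94, 6.96 and 6.81. Hemophagocyte 2 was the highest and hemophagocyte 3 the lowest of all 8, with the resting arrays between them. The change of -0.024 (SE 0.083, limma adjusted p = 0.955) had a fold interval of 0.866 to 1.12.

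Among the costimulators, Cd80 was the one whose groups separated. Cd80, a B7 protein that engages Cd28 and Ctla4 on T cells, had log2 values of 7.34, 7.16, 7.41 and 7.36 on hemophagocytes 2, 3, 5 and 6. Resting macrophages 3, 4, 5 and 6 had 7.54, 7.45, 7.47 and 7.64. All 4 hemophagocyte arrays were below all 4 resting arrays, with 0.044 log2 units between the nearest of them. Values were lower without overlap in 3% of all probe sets. The means were 7.32 ± 0.11 and 7.53 ± 0.084 (log2, SD, n = 4 each), a change of -0.21 (SE 0.078) or 1.16-fold lower. This did not pass over all probe sets (limma adjusted p = 0.745), and the exact permutation p = 0.0286 is the smallest that 4 arrays against 4 can give. The unadjusted 95% interval ran from 1.03-fold to 1.302-fold lower.

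The Cd80 difference was not the same in both of its probe sets or on a background-adjusted scale. The annotation of the probe set used here lists 2 accessions, 0 of them a RefSeq mRNA. A dimmer Cd80 probe set lists 12 accessions, 1 of them a RefSeq mRNA. It averaged 5.93 ± 0.33 in hemophagocytes and 5.86 ± 0.18 in resting macrophages (log2, SD, n = 4 each), a change of 0.070 with overlapping groups. The mean of both probe sets had a change of -0.069. Olfactory and vomeronasal receptor genes, taken as a gauge of array background, averaged 5.85 to 6.18 on hemophagocyte arrays and 6.10 to 6.26 on resting arrays. Measured from that mean, the Cd80 probe set used here stood at 1.21 to 1.31 on hemophagocyte arrays and at 1.21 to 1.44 on resting arrays, so that the groups overlapped.

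Cd86, the other B7 ligand of Cd28, had log2 values of 6.05, 5.86, 5.84 and 5.89 on hemophagocytes 2, 3, 5 and 6 and of 5.74, 5.97, 5.72 and 5.80 on resting macrophages 3, 4, 5 and 6. All 4 hemophagocyte arrays were above the resting mean, but resting macrophage 4 exceeded 3 of them. The change was 0.10 (SE 0.081, limma adjusted p = 0.782; exact permutation p = 0.229, two-sided), a fold of 1.07 with an interval of 0.949 to 1.22.

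Cd40, the receptor through which helper T cells license macrophages and dendritic cells, was nearly level over the hemophagocyte arrays, at 7.37, 7.37, 7.45 and 7.36. The resting arrays had 7.45, 7.38, 7.14 and 7.21. Resting macrophages 5 and 6 were lower than all others, and resting macrophage 3 was the highest of the 8. The SD was 0.041 in hemophagocytes, smaller than that of all but 3.87% of probe sets, and 0.14 in resting macrophages. The change was 0.093 (SE 0.081, limma adjusted p = 0.803), with a fold interval of 0.942 to 1.21.

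Irf5, which drives inflammatory cytokine genes downstream of Toll-like receptors, had log2 values of 6.39, 6.42, 6.23 and 6.27 on hemophagocytes 2, 3, 5 and 6. The resting arrays 3, 4, 5 and 6 had 6.34, 6.51, 6.23 and 6.28. The groups covered almost the same range, and resting macrophage 4 was the highest of all. The change was -0.012 (SE 0.082, limma adjusted p = 0.980), with a fold interval of 0.874 to 1.13.

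Gpr18, a G protein-coupled receptor for lipid mediators found on lymphocytes and on activated macrophages, had values of 8.05, 7.86, 7.92 and 7.80 on the hemophagocyte arrays. The resting arrays had 8.01, 7.93, 7.67 and 7.91. Hemophagocyte 2 was the highest and resting macrophage 5 the lowest. The change was 0.026 (SE 0.090, limma adjusted p = 0.955), with a fold interval of 0.886 to 1.17.

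**Figure D2:**
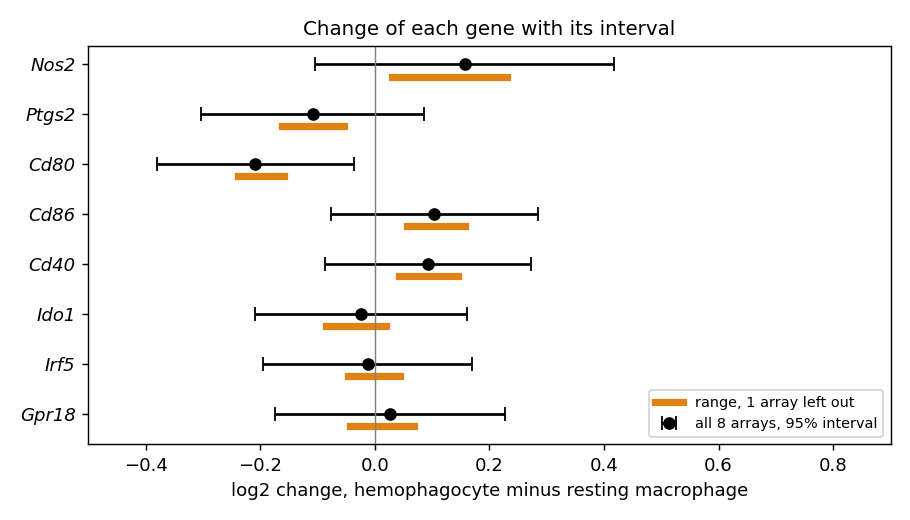
Log2 change of each gene, hemophagocyte minus resting macrophage, with its unadjusted 95% interval (black) and the range of the change when each of the 8 arrays is left out in turn (orange). Only the interval of Cd80 lies to one side of 0, and the widest interval is that of Nos2, from -0.10 to 0.42.

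On the deposited scale, the intervals bound what these arrays could have missed. Nos2 has the widest, and a rise above 1.34-fold lies outside it. For Cd86 and Cd40 the upper bounds were 1.22-fold and 1.21-fold. These bounds hold for the deposited values, in which a probe set near background shows less than the full change of its transcript. Measured from the receptor mean, the changes were 0.31 for Nos2 (SE 0.11), 0.255 for Cd86 (SE 0.11) and 0.24 for Cd40 (SE 0.12). The median change of all probe sets was then 0.11, and the bounds above do not apply on that scale.

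Whether several of these transcripts were detected at all cannot be told from the values. Sensory receptor genes are transcribed chiefly in sensory neurons, and each gene was set against 1168 olfactory and vomeronasal receptor probe sets on the same array, a rough gauge since probes differ in affinity. Cd86 exceeded 26.9% to 45.2% of them over the 8 arrays, so it lay below their middle on every array. Nos2 exceeded 43.2% to 68.4%, Ptgs2 40.3% to 62.2% and Irf5 42.2% to 66.8%. Ido1 exceeded 66.6% to 81.7%. The 3 others stood higher against the receptors, with Cd40 above 78.8% to 93.7%, Cd80 above 88.1% to 92.1% and Gpr18 above 92.9% to 98.4%. For Cd80 this holds for the brighter probe set. The dimmer one, which lists a RefSeq mRNA, had 5.61 to 5.99 on resting arrays, where the receptor means were 6.10 to 6.26. On hemophagocyte arrays it had 5.44 to 6.14, where the receptor means were 5.85 to 6.18.

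**Figure D3:**
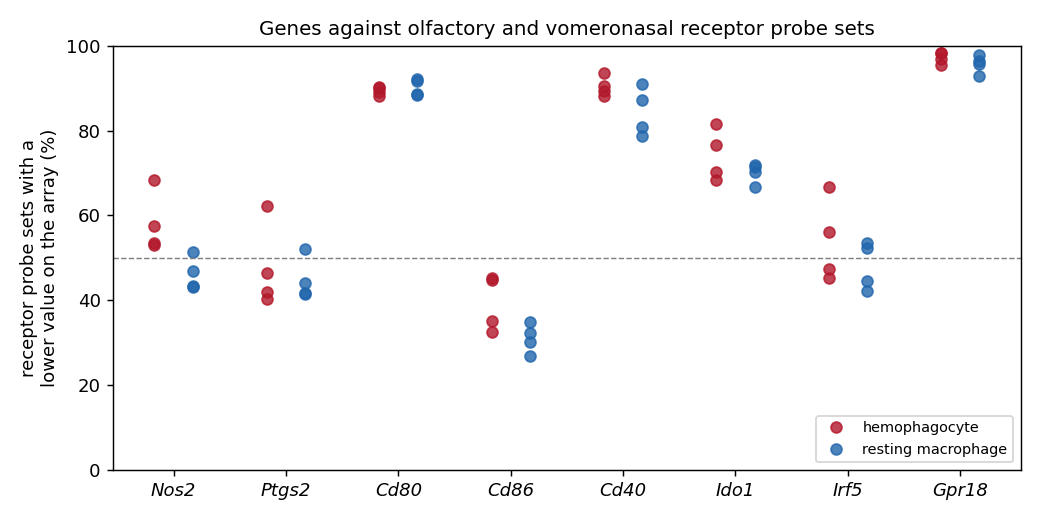
Percentage of the 1168 receptor probe sets with a lower value than the gene on the same array, 1 point per array, hemophagocytes in red and resting macrophages in blue; the dashed line marks the middle of the receptor probe sets. Cd86 lies below the line on all 8 arrays, and Gpr18 is above 92% on all 8 arrays. Nos2, Ptgs2 and Irf5 fall on both sides of the line. Nos2 lies above it on all 4 hemophagocyte arrays and on resting macrophage 3.

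Measured from the receptor mean of each array, Nos2 stood at 0.25 to 0.64 in hemophagocytes and at -0.0095 to 0.21 in resting macrophages, so that its groups did not overlap. On that scale 4.29% of all probe sets were higher without overlap, and the median change of all probe sets was 0.11. The Nos2 change was then 0.31 (limma adjusted p = 0.538), and 0 of the 8 genes passed. This scale was chosen after seeing the data. With the receptor mean as a covariate of the fit instead, Nos2 also stood at 0.31 (limma adjusted p = 0.963). It was then the one of the 8 genes at an unadjusted p under 0.05, and Cd80, at -0.13, was not.

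The partners of these genes were taken as 9 lists of the same pathways. The 111 listed genes gave 103 measured ones, counting Fbxo24, which was taken through a synonym in place of the listed Chuk. None of the 103 passed (limma, 0 higher and 0 lower over all probe sets). At an unadjusted p under 0.05 hemophagocytes had higher values for 3 and lower values for 9 of them, 11.7% of the 103, where 6.64% of all probe sets were at that level. Their median change was -0.034, with 39 above 0. Partners without overlap numbered 2 higher and 5 lower, or 6.8% of the 103, beside 3.81% of all probe sets. Subtracting the receptor mean adds the same amount to the change of every probe set, the median over all going from -0.037 to 0.11. An upward shift of the partners on that scale was therefore fixed in advance and is not a result about them. Ptgds stood at -0.018 on it, and Tnfrsf4 and Traf2 at -0.027 each.

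Of the 13 genes of arginine use and nitric oxide, 4 had changes above 0 and the median was -0.089. Arg2, the mitochondrial arginase that competes for the substrate of Nos2, had log2 values of 5.24, 4.999, 5.26 and 5.25 on hemophagocytes 2, 3, 5 and 6 and of 5.42, 5.45, 5.68 and 5.60 on resting macrophages 3, 4, 5 and 6. The groups did not overlap, and the change was -0.35 (SE 0.088, limma adjusted p = 0.745). Arg2 lay below the receptor mean on each of the 8 arrays. Arg1, the cytosolic arginase of alternatively activated macrophages, reached 7.66 on hemophagocyte 5 and 6.63 to 6.76 on the other hemophagocytes. The resting arrays had 6.497 to 6.69, and without hemophagocyte 5 its change was 0.070 in place of 0.32. Odc1, the polyamine enzyme downstream of arginase, had a change of -0.18, and Gch1, which makes the cofactor that Nos2 needs, of 0.11. Odc1 also lay below the receptor mean on each of the 8 arrays.

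Of 16 prostanoid genes, 5 were above 0 and the median was -0.042. Ptgds, which makes prostaglandin D2, had values of 7.09 to 7.21 in hemophagocytes and 7.29 to 7.35 in resting macrophages. These groups did not overlap, with a change of -0.17 (limma adjusted p = 0.745). Pla2g4a, the phospholipase that frees arachidonic acid for Ptgs2, had a change of -0.18. Alox5ap, which hands arachidonic acid to 5-lipoxygenase, had a change of 0.24, or 0.10 without hemophagocyte 6. The prostaglandin E2 receptor Ptger3 stood at -0.090. None of the 3 passed.

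The B7 family and its receptors had 2 of 9 genes above 0 and a median of -0.056. Cd28, the T cell receptor for Cd80 and Cd86, had a change of -0.31 (limma adjusted p = 0.745), and hemophagocyte 3, at 5.95, was its lowest array. Without that array the change was -0.16. The inhibitory ligands differed in sign, with Cd274 at 0.15 and Pdcd1lg2 at -0.16, and neither passed. Cd276 stood at -0.13.

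Genes around Cd40 and the costimulators of the TNF family had 6 of 13 above 0 and a median of -0.031. Cd40lg, the T cell ligand of Cd40, had values of 5.22 to 5.41 in hemophagocytes and 5.44 to 5.75 in resting macrophages, all below the receptor mean. Its groups did not overlap, with a change of -0.30 (SE 0.083, limma adjusted p = 0.745). The adaptors of Cd40 differed in sign. Traf2 had a change of -0.18, while Traf6, which also serves Toll-like receptors, had values of 6.19 to 6.30 against 5.98 to 6.18 and a change of 0.16. Tnfrsf4, the OX40 receptor of T cells, had lower values without overlap (-0.18). None of the 3 passed.

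In the tryptophan and kynurenine list 1 of 10 genes was above 0, and the median was -0.052. Slc7a5, a subunit of the tryptophan transporter, had values of 7.05 to 7.32 in hemophagocytes and 7.32 to 7.58 in resting macrophages. The groups were separate by a narrow margin, and the change was -0.26 (SE 0.086, limma adjusted p = 0.745). Its partner subunit Slc3a2 was the gene above 0, at 0.19, and stood at 0.031 without hemophagocyte 5. Ahr, the receptor that kynurenine binds, had a change of -0.22 and Kmo, the next hydroxylase of the pathway, of -0.21. Neither passed, and Kmo lay below the receptor mean on each of the 8 arrays.

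Of 7 other IRF genes, 4 were above 0 and the median was 0.0030. Irf7, itself an interferon-induced gene, had values of 6.40, 6.84, 7.50 and 6.60 on hemophagocytes 2, 3, 5 and 6 and of 6.26 to 6.502 on resting arrays. Hemophagocyte 2 was within the resting range, and the other 3 were above it. Its change of 0.44 did not pass (limma adjusted p = 0.745) and was 0.22 without hemophagocyte 5. Irf2, which opposes interferon-induced transcription, had a change of -0.33, and Irf4, the lymphocyte and alternative activation factor, of -0.22. Both lay below the receptor mean on each of the 8 arrays. Irf9, the interferon-signalling subunit, stood at 0.036.

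Cd38 and Fpr2 were represented by their relatives only. Bst1, the closest relative of Cd38 and likewise an enzyme acting on NAD, had log2 values of 6.42, 6.89, 7.57 and 6.60 on hemophagocytes 2, 3, 5 and 6. Resting macrophages 3, 4, 5 and 6 had 6.10, 6.28, 6.36 and 6.40. All 4 hemophagocyte arrays were above all resting arrays, hemophagocyte 2 by a narrow margin, and 0.816% of all probe sets were higher without overlap. With a change of 0.58 (SE 0.21, a fold of 1.497) it was the largest of the 103, and it did not pass (limma adjusted p = 0.745). Without hemophagocyte 5 it was 0.35. Trpm2, a channel opened by the product of Cd38, had a change of 0.20, the ectonucleotidase Nt5e of 0.11 and the NAD hydrolase Sarm1 of -0.12. Sarm1 lay below the receptor mean on each of the 8 arrays. In this list 7 of 11 were above 0, with a median of 0.043.

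Of 12 formyl peptide and lipid mediator receptors 3 were above 0, with a median of -0.082. The Fpr2 relatives Fpr-rs6, Fpr-rs4 and Fpr-rs3 stood at -0.23, -0.22 and -0.12, and the leukotriene B4 receptor Ltb4r1 at -0.16. Without hemophagocyte 3 the Fpr-rs4 change was -0.040. None of these 4 passed (limma, smallest adjusted p = 0.745). Fpr-rs6 and Fpr-rs4 lay below the receptor mean on each of the 8 arrays. In the list of NF-kB and interferon gamma signalling, which carries the inducing signals, 7 of 12 genes were above 0, with a median of 0.018. Both figures count Fbxo24 (0.032), which was not listed and was taken through a synonym in place of Chuk. Nfkbia, the NF-kB inhibitor that NF-kB itself induces, had a change of 0.13, the subunits Rela and Relb of -0.18 and 0.048, and the receptor chain Ifngr2 of -0.087. None passed.

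**Figure D4:**
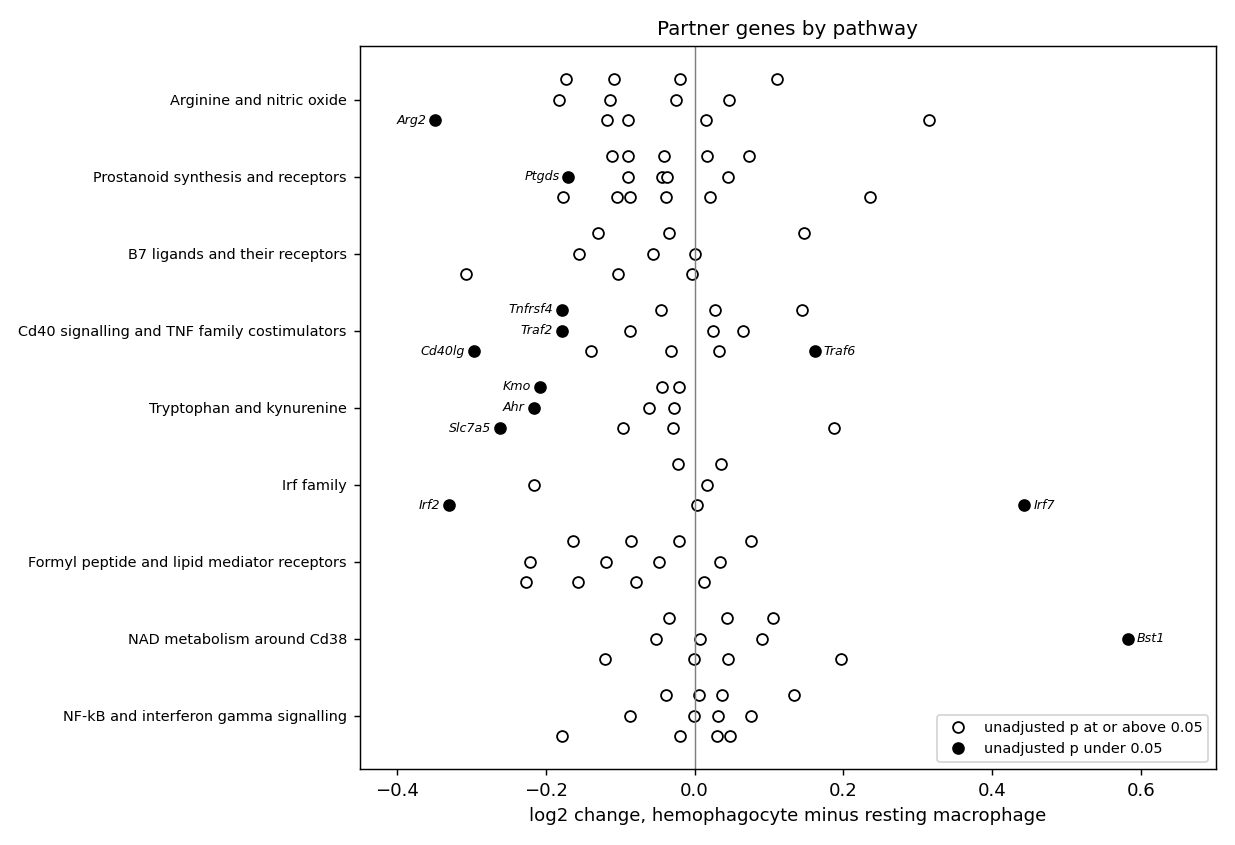
Log2 change, hemophagocyte minus resting macrophage, of each measured partner gene by pathway; filled and named points have an unadjusted p under 0.05, and vertical offsets within a row have no meaning. Bst1 at 0.58 and Irf7 at 0.44 lie farthest to the right and Arg2 at -0.35 farthest to the left, and no point passed over all probe sets.

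No single hemophagocyte array held the high values. Of the 8 genes, hemophagocyte 2 was the highest of its group for 3 (Cd86, Ido1 and Gpr18), hemophagocyte 5 for 3 (Nos2, Cd80 and Cd40), hemophagocyte 3 for 2 (Ptgs2 and Irf5) and hemophagocyte 6 for 0. Of the 103 partners, hemophagocyte 6 was the highest for 39, hemophagocyte 2 for 27, hemophagocyte 5 for 22 and hemophagocyte 3 for 15. As shares of the partners these were 26.2%, 14.6%, 21.4% and 37.9% for hemophagocytes 2, 3, 5 and 6. Of all probe sets the shares were 32%, 15.9%, 25.5% and 26.6%, in the same order. Hemophagocyte 5 was the highest for Arg1, Slc3a2, Irf7 and Bst1, which were singled out after their values were seen. The macrophage lysosomal protein Cd68 reached 10.52 on hemophagocyte 5 and 9.66 on hemophagocyte 3, and 7.21 to 7.50 elsewhere. Adgre1, a surface marker of mature macrophages, reached 7.38 on hemophagocyte 5, and its other 7 values were 5.53 to 5.89, below the receptor mean on each of them. Of 11 macrophage markers 7 had changes above 0 and 0 passed (limma). Their mean was 6.13 to 7.14 over hemophagocyte arrays and 6.34 to 6.47 over resting arrays. Lyz2, the macrophage lysozyme, had values of 5.86, 9.95, 9.96 and 6.55 on hemophagocytes 2, 3, 5 and 6 and of 7.45 to 8.89 on resting arrays. Hemophagocytes 2 and 6 were thus below every resting array, and 3 and 5 above. In resting macrophages it averaged 8.48, and Cd68, Csf1r, Fcgr1 and Vcam1 were above the receptor mean on each resting array. Spic, Cd163 and Marco, markers of splenic macrophage subsets, were below it on the resting arrays, as were Mertk and Adgre1. Mpeg1 fell on both sides of it. The part of these differences in the values above was not tested.

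Markers of other cells, among them the dendritic cells and B cells that carry the costimulators, were examined beside Cd80. The mean of 7 dendritic cell markers was 6.81 to 6.98 on hemophagocyte arrays and 6.99 to 7.05 on resting arrays, without overlap. All 7 had changes below 0 (median -0.16), and 0 passed (limma; 0 at an unadjusted p under 0.05). The receptor genes themselves had a median change of -0.15. The mean of 6 NK cell markers was likewise without overlap, at 5.99 to 6.21 against 6.24 to 6.28, with a median change of -0.13. The mean of 7 B cell markers was 6.06 to 6.28 against 6.18 to 6.32, with 2 above 0. Of 9 neutrophil markers 4 were above 0, and their mean was 6.17 to 6.72 against 6.19 to 6.23. S100a8 reached 8.02 on hemophagocyte 3, against 4.86 to 5.02 on resting arrays. Ly6g, Elane, Cxcr2, Ltf and Camp had changes below 0, from -0.14 to -0.011. Whether these markers have a part in the Cd80 value was not tested. The values are on a log2 scale on which no probe set reads 0.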

How the data were processed

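Per the labels' protocols, RNA of laser-captured cells was isolated and amplified with the NuGen WT-Ovation kit and labelled with biotin before hybridisation. The deposited values are 1 log2 value per probe set and array, as their range shows. The submitters' processing notes name Affymetrix Expression Console 1.1. How it was set (background correction, probe summary, normalization) is not given in the sources used. Array medians were 6.10 to 6.17, arrays within a group correlated across probe sets at 0.937 to 0.974, and no further scaling was applied. Arrays have no read depth, and 4 per group limit the precision.

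Of 35556 probe sets, the platform annotation gave 1 gene for 21789 and several for 1621, and 12146 were unnamed here. Each gene took its brightest probe set, including those naming several genes, which left 20220 to fit; all 8 genes described had a probe set naming them alone. Groups and replicate numbers came from the sample titles. Hemophagocytes were compared with resting macrophages with limma 3.58.1 in R 4.3.3 (lmFit, eBayes, no block), Benjamini-Hochberg adjusted over all 20220, at a threshold of 0.05; intervals are the fit's, unadjusted. The script was tested on simulated data. The genes, lists and markers were chosen with earlier results of these data known. The text names all listed genes and up to 4 partners per list, those of smallest p. No list was tested as a set.

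The alternatives were other scalings (quantile, median, cyclic loess), a filter on dim probe sets, the mean of all probe sets, array weights, an intensity trend with robust prior, single-gene or all probe sets, each array left out, 2 pairs of arrays left out, the replicate number as a block, and receptor background as a covariate. Subtracting that background was added after seeing the data. Promoters are from the RefSeq table of GRCm38.p6.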

Additional observations from a re-analysis of the deposited data

Results flagged for a closer look

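In 7 of 108 groups of 4 arrays 1 array stood far from the other 3 (Dixon's criterion at 95%), where chance alone flags about 1 in 20 groups. Cd40 was 7.45 on hemophagocyte 5 and 7.36 to 7.37 on the other hemophagocytes. Arg1 was 7.66 on hemophagocyte 5, against 6.63 to 6.76. Arg2 was 4.999 on hemophagocyte 3, against 5.24 to 5.26, and Cd276 was 7.64 on hemophagocyte 6, against 7.47 to 7.48. Among resting arrays, Gch1 was 5.82 on resting macrophage 5, against 5.93 to 5.95, and Kmo was 4.53 on resting macrophage 6, against 4.63 to 4.65. The mean of the monocyte markers was 6.41 on resting macrophage 3, against 6.58 to 6.60.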

How the results depend on the processing

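Under each of 22 alternatives 0 of the 8 genes passed, 0 partners passed and 0 probe sets were called lower. Nos2, Cd80, Cd86 and Cd40 kept their direction in every alternative that gave a value (the filter on dim probe sets left out Ptgs2 and Cd86). The change of Cd80 was -0.24 to -0.16 with single arrays left out and -0.069 with the mean of its probe sets. It was -0.13 with the receptor background as a covariate, where Nos2 was 0.31, and its unadjusted p stayed under 0.05 in 15 of 22 alternatives. The number of the 8 genes at that level was 0 or 1 with single arrays left out: 0 without hemophagocyte 3 or resting macrophage 6. It was 0 with the mean of all probe sets, 0 without hemophagocyte 2 and resting macrophage 3 together, and 2 with the receptor mean subtracted, where the genes' median change was 0.16 and that of all probe sets 0.11. With single arrays left out the genes' median change ran from -0.028 to 0.044.

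Genes called higher numbered 1 with the intensity trend and robust prior, with the mean of all probe sets, with all probe sets of the table, with the background covariate, and without hemophagocytes 3 and 5 together. They numbered 2 with single-gene probe sets and 7 without hemophagocyte 2 and resting macrophage 3 together. With single arrays left out they ran from 1 to 15, with 15 without hemophagocyte 2, 2 without hemophagocyte 3, resting macrophage 3 or resting macrophage 4, and 1 without resting macrophage 5 or 6. The cause was not tested.

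With the replicate number as a block, 9 genes were called higher, and Irf5 (0.024), Gpr18 (-0.0059) and Relb (-0.016) changed sign. The labels do not say whether arrays of the same number are paired, and the correlations do not settle it. Deviations from the group means correlated at 0.14, 0.055 and 0.12 between arrays of the same number. Hemophagocytes 3 and 6 correlated best with their own number. Hemophagocyte 5 correlated best with resting macrophage 4 (0.13), and the largest correlation, 0.235, joined hemophagocyte 2 and resting macrophage 3.

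Single arrays moved other values by over 1.5 times. Without hemophagocyte 2, Cd86 was 0.056 and Ptgs2 -0.054. Cd40 was 0.043 without resting macrophage 5 and Nos2 0.031 without hemophagocyte 5. Without hemophagocytes 3 and 5 together Ptgs2 was -0.24.

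The smallest changes turned sign elsewhere. Irf5 was 0.010 after quantile normalization, 0.015 after median centring, 0.022 after cyclic loess and 0.14 with the receptor mean subtracted, and -0.047 to 0.044 with single arrays left out. Ido1 was 0.0029 after median centring, 0.013 after cyclic loess, 0.037 with the covariate, 0.057 without hemophagocytes 3 and 5, 0.13 with the subtraction, and -0.085 to 0.020 with single arrays left out. Gpr18 was -0.015 with the covariate and -0.044 to 0.069 with single arrays left out, and Ptgs2 0.043 with the subtraction. Among 36 named partners 27 kept their sign throughout. With the covariate Relb was -0.056, Ptger3 0.034, Irf9 -0.055 and Fpr-rs4 0.16. With the subtraction Ptger3 was 0.061, Cd276 0.021, Fpr-rs3 0.033, Sarm1 0.031 and Ifngr2 0.064. Rela was 0.019 without hemophagocytes 3 and 5.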
